A study of Mus musculus with 18 samples.

Results

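Otx2, Pou3f1, Sox3, Zic2, Zic5, Foxd3, Sall2, Cldn6 and Tead2 are 9 genes associated with the formative and primed states of the epiblast, the tissue of the early mouse embryo that gives rise to the embryo proper. They were taken by gene name from a deposited table of 25279 genes, and all 9 were among the 20267 genes with enough counts to be tested. The table held RNA-seq read counts of 18 libraries of mouse embryonic stem cells, from a study of Oct1, the transcription factor encoded by Pou2f1, in mesodermal lineage specification. Cells labelled Parental and cKO, a conditional knockout of Oct1, were taken through a mesoderm-inducing protocol on gelatin. Each genotype was sampled on days 0, 3 and 6 with 3 libraries, which gave 6 groups. The labels do not tell how the knockout was induced, how many clones were used or whether a group's 3 libraries are separate cultures, so p-values measure only the spread between libraries, which may be technical.

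Pluripotent cells of the epiblast pass from a naive state through a formative state, in which they become able to respond to germ layer signals, to a primed state. The homeobox factor Otx2 and the POU factor Pou3f1 (Oct6) are known for driving the exit from the naive state, and Pou3f1 also for promoting neural fate. Foxd3 is a forkhead factor needed for the pluripotent epiblast and later for neural crest, and Zic2 and Zic5 are zinc finger factors of the epiblast and neural plate. Sox3, a SOXB1 factor, is shared by primed epiblast and neural progenitors. Sall2 is a zinc finger factor of the spalt-like family, Tead2 binds DNA for the Hippo pathway coactivator Yap, and Cldn6 is a tight junction claudin of early embryonic epithelia.

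The genes lay on chromosomes 4, 7, 14, 17 and X in build GRCm38 with GENCODE M21 annotation. Zic5 (chr14:122456795-122465677, minus strand) and Zic2 (chr14:122475435-122479852, plus strand) lay head to head with 9757 bases between them. The other positions were chr14:48657677-48673819 for Otx2 on the minus strand, chr14:52311172-52328762 for Sall2 on the minus strand and chr4:99656299-99658622 for Foxd3 on the plus strand. Pou3f1 lay at chr4:124656807-124660655 on the plus strand, Tead2 at chr7:45215753-45233644 on the plus strand, Cldn6 at chr17:23679249-23682446 on the plus strand and Sox3 at chrX:60891366-60893430 on the minus strand. In the comparison of the genotypes, the median log2 fold change of the expressed genes on these 5 chromosomes stayed between -0.10 and 0.13 on every day. Chromosome 11, which holds no member, had medians of -0.38, -0.39 and -0.49 on days 0, 3 and 6.

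RefSeq promoter windows (build GRCm38.p6, 250 bases before to 50 bases after a transcript start) were matched by symbol for 6 of the 9 genes and gave 10 windows, 4 of them for Otx2 and 2 for Sall2. The windows below belong to the 3 transcription factor genes, among those with a window, whose change from day 0 to day 3 differed most between the genotypes, and capitals mark each CG dinucleotide. The Foxd3 window lies at chr4:99656049-99656348 on the plus strand, that of Zic5 at chr14:122465609-122465908 on the minus strand, and those of Otx2 at chr14:48667595-48667894 and chr14:48665060-48665359 on the minus strand.
Foxd3: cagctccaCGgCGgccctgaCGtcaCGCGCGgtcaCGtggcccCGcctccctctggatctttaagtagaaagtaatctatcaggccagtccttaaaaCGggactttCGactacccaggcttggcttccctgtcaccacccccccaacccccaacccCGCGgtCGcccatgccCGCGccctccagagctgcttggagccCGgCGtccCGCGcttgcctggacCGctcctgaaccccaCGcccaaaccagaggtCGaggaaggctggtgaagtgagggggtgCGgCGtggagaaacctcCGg
Zic5: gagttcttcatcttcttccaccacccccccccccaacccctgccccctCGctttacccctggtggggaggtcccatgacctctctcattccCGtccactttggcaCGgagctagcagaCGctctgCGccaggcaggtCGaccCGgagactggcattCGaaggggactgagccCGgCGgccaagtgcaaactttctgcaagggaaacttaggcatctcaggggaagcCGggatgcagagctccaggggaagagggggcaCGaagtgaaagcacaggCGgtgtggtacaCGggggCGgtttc
Otx2 window 1: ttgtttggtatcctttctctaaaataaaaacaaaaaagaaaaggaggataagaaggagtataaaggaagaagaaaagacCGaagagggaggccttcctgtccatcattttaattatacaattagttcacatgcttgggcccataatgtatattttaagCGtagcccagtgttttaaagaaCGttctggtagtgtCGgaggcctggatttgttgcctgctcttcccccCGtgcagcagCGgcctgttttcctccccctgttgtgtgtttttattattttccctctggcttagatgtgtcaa
Otx2 window 3: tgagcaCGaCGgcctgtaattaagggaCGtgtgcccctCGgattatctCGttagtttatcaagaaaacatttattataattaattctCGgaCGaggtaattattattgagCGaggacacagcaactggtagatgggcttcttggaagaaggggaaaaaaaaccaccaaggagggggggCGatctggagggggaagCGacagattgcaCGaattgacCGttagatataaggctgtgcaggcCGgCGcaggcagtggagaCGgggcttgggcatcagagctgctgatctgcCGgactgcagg
The Foxd3 window held 25 CG dinucleotides and the Zic5 window 15, against a median of 7 (quartiles 3 and 20) over all 32851 promoter windows of the same length. Otx2 held 6 and 16 in the windows shown, and 41.7% and 51.0% G or C, against a median of 52.7%. Its windows 2 and 4, not shown, held 8 and 11 CG dinucleotides and 47.7% and 53.7% G or C. The octamer ATGCAAAT, the motif for which the Oct factors are named, was searched on both strands. It was found in 0 of the members' 10 windows and in 570, or 1.74%, of all windows, which says only that these letters are not in the members' windows.

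Library totals ran from 13704958 to 26995420 counts. Levels below are CPM, that is, counts relative to library size, scaled with the edgeR TMM factors, and a gene is called changed where edgeR's quasi-likelihood test gave an adjusted p under 0.05 over all genes tested. Pou2f1, the targeted gene, stood at 123 to 142 CPM in the parental libraries and 62.2 to 95.4 CPM in the cKO libraries. Its log2 fold change in cKO cells (± SE) was -0.70 ± 0.11, -0.58 ± 0.11 and -0.86 ± 0.11 on days 0, 3 and 6 (adjusted p = 9.46e-05, 0.0011 and 7.91e-06), a partial loss of counts over the whole gene. One cKO day 6 library, replicate 2, stood apart: its counts differed from those of the other two cKO day 6 libraries by a chi-square of 106 and 96.9 per gene, against 1.23 to 12.4 for every other pair within a group. It enters the spread that all groups share, so results that rest on it are given with and without it. The labels number the day 0 libraries of both genotypes in a different series from the day 3 and day 6 libraries, and a change from day 0 to day 3 within a genotype cannot be told apart from that difference. The cell type label is ESC on every day, but Nanog, a defining marker, had means of 988 and 1064 CPM in parental and cKO cells on day 0 and of 13.7 and 2.36 CPM on day 6.

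In cKO against parental cells the members changed in different directions on the 3 days. On day 0, 1 member was higher (Sall2) and 3 were lower (Zic5, Cldn6 and Tead2), where 15.1% of all genes tested were called higher and 16.5% lower. On day 3, 7 of 9 were higher and 0 were lower, where 6.32% of all genes were called higher and 9.39% lower; the count lower was also 0 at an unadjusted p under 0.05 and with DESeq2. On day 6, 3 were higher (Otx2, Pou3f1 and Cldn6) and 3 lower (Sox3, Sall2 and Foxd3), where the shares of all genes were 19.9% and 25.7%. The members' median log2 fold change was -0.12, 0.88 and -0.12 on days 0, 3 and 6, against 0.00, 0.00 and -0.09 over all genes. In these bulk libraries, a larger share of cells of a type and more RNA per cell cannot be told apart.

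**Figure D1:**
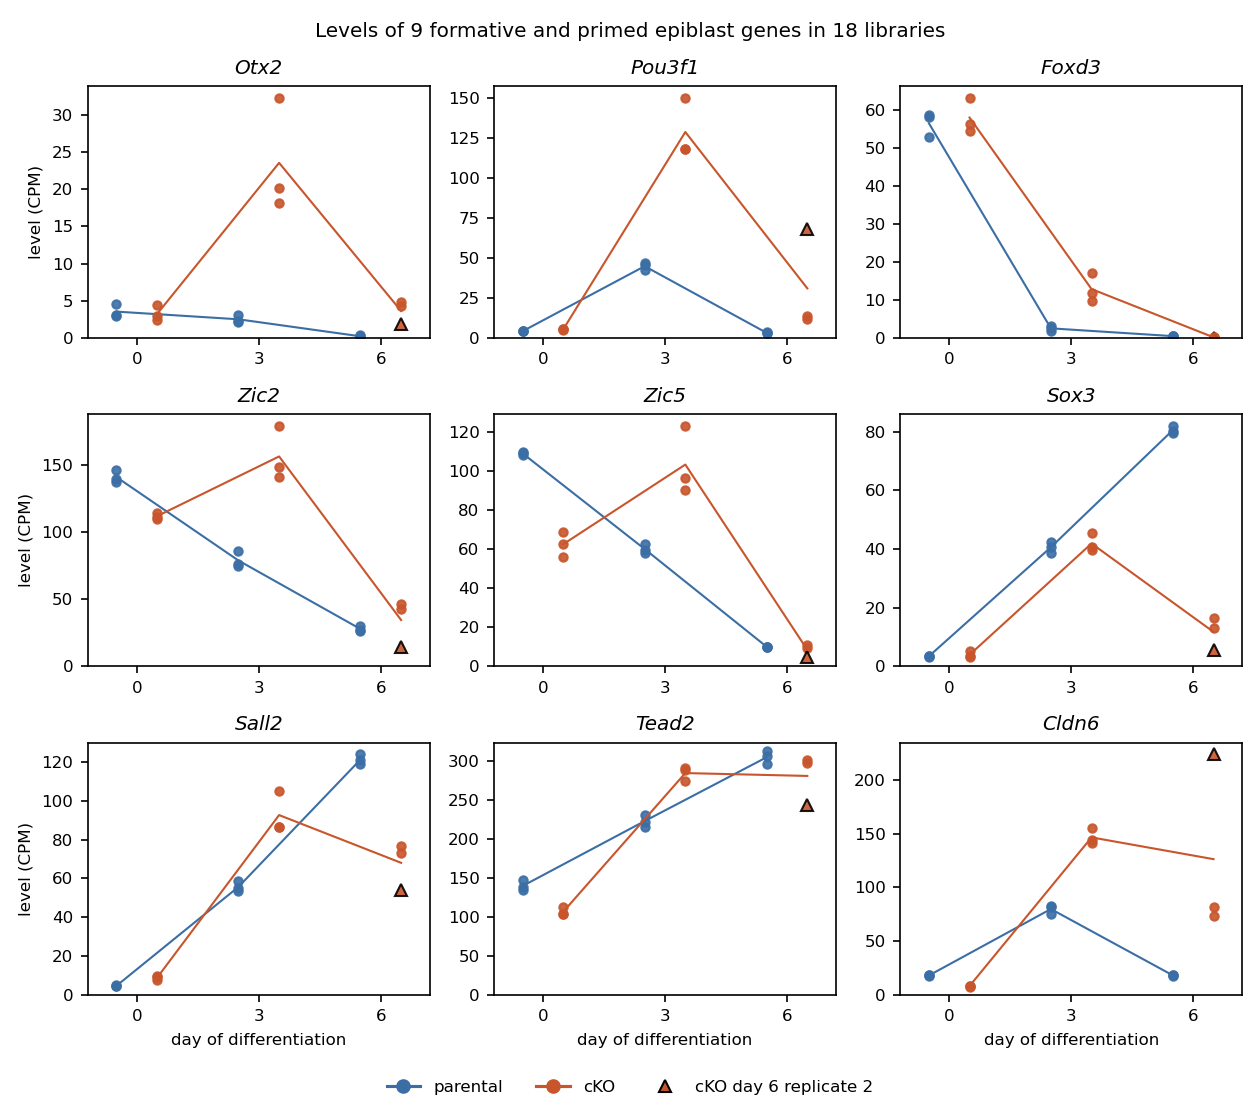
CPM of each of the 9 genes (vertical axis, own scale per panel) by day of differentiation (horizontal axis) in parental and cKO cells. Points are libraries, lines join the group means of 3 libraries, and a triangle marks cKO day 6 replicate 2, which is at 67.8 CPM for Pou3f1 and 224 CPM for Cldn6, above its group mates.

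Otx2 fell after day 3 in parental cells and rose and then fell in cKO cells. On day 0 its level was 4.55, 3.09 and 2.96 CPM in the parental libraries and 2.92, 2.35 and 4.38 CPM in the cKO libraries, with overlapping groups. On day 3 the parental libraries held 3.10, 2.11 and 2.28 CPM and the cKO libraries 20.2, 32.3 and 18.2 CPM. On day 6 they held 0.380, 0.237 and 0 CPM, from 9, 7 and 0 counts, against 4.81, 1.80 and 4.25 CPM in cKO cells. All cKO libraries lay above all parental ones on both later days. The log2 fold change was 3.25 ± 0.37 on day 3 (adjusted p = 1.4e-05) and 3.95 ± 0.53 on day 6 (adjusted p = 2.15e-05), with no call on day 0 (-0.12 ± 0.40, adjusted p = 0.887). The day 6 value rests on few parental counts, and the library with 0 counts could hold up to 0.188 CPM (3 counts). Without cKO day 6 replicate 2, which had the lowest level of its group, the day 6 value was 4.26.

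Pou3f1 rose to a peak on day 3 in both genotypes, and the peak was higher in cKO cells. Its day 0 levels were 4.11, 4.22 and 4.14 CPM in parental and 5.69, 5.17 and 5.32 CPM in cKO libraries. On day 3 they were 42.4, 45.5 and 46.5 CPM in parental and 118, 150.1 and 118 CPM in cKO libraries. On day 6 the parental libraries were back at 2.96, 2.81 and 3.57 CPM and the cKO libraries at 13.4, 67.8 and 11.6 CPM. The groups did not overlap on any of the 3 days, as was so for 52.4%, 40.1% and 51.5% of all genes tested on days 0, 3 and 6. The log2 fold change was 0.37 ± 0.63 on day 0 (adjusted p = 0.723), 1.52 ± 0.47 on day 3 (adjusted p = 0.0464) and 3.33 ± 0.57 on day 6 (adjusted p = 0.000401). The day 3 call was lost on leaving out any one of the 6 day 3 libraries (adjusted p from 0.0795 to 0.122). Leaving out cKO day 6 replicate 2, whose spread enters every test of this gene, gave 1.52 ± 0.08 on day 3 (adjusted p = 3.99e-19), and a smaller 2.03 ± 0.13 on day 6 (adjusted p = 1.26e-16).

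Foxd3 was highest on day 0 in both genotypes and was higher in cKO than in parental cells on day 3. The day 0 libraries held 58.2, 58.7 and 53.0 CPM in parental and 56.5, 54.6 and 63.3 CPM in cKO cells, which overlapped. On day 3 the parental libraries had fallen to 3.10, 1.92 and 2.50 CPM and the cKO libraries to 11.9, 17.0 and 9.70 CPM, without overlap. The log2 fold change was 0.04 ± 0.17 on day 0 (adjusted p = 0.925) and 2.38 ± 0.21 on day 3 (adjusted p = 3.82e-07). By day 6 few Foxd3 counts were left, with 10, 11 and 9 counts in the parental and 2, 1 and 6 counts in the cKO libraries. The day 6 log2 fold change of -1.60 ± 0.54 (adjusted p = 0.0224) rested on these counts, and the call was lost without cKO day 6 replicate 1, without cKO day 6 replicate 2 or without parental day 6 replicate 3 (adjusted p = 0.0838, 0.194 and 0.0594). It was also lost in a fit of the day 6 libraries alone (adjusted p = 0.109).

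Of the neighbours Zic2 and Zic5, Zic5 was lower in cKO cells on day 0, both were higher on day 3, and neither was called on day 6. Zic5 stood at 109.8, 109 and 108 CPM in the parental day 0 libraries and at 62.6, 68.9 and 56.0 CPM in the cKO ones. On day 3 the order was turned, with 59.6, 62.4 and 58.0 CPM in parental and 90.4, 123 and 96.3 CPM in cKO cells. The groups were apart on both days, with log2 fold changes of -0.80 ± 0.17 (adjusted p = 0.00174) and 0.78 ± 0.17 (adjusted p = 0.00425). On day 6 they overlapped, at 9.72, 10.1 and 10.1 CPM in parental and 9.57, 4.97 and 10.7 CPM in cKO cells (-0.25 ± 0.19, adjusted p = 0.319).

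Zic2 had 146, 137 and 139 CPM in parental and 114, 109.8 and 111 CPM in cKO libraries on day 0, a difference without overlap that was not called (-0.33 ± 0.28, adjusted p = 0.425). On day 3 it had 74.5, 85.7 and 75.7 CPM in parental and 141, 179 and 148 CPM in cKO cells. The log2 fold change was 0.99 ± 0.28 (adjusted p = 0.0293), and the call was lost without any one of the parental day 3 libraries or without cKO day 3 replicate 2 or 3 (adjusted p from 0.0564 to 0.0986). On day 6 it had 26.6, 26.5 and 30.0 CPM in parental cells and 46.4, 14.1 and 42.7 CPM in cKO cells, where replicate 2 lay below the parental libraries and the other two above them. The day 6 log2 fold change was 0.31 ± 0.29 with all libraries (adjusted p = 0.409) and 0.69 ± 0.08 without that replicate (adjusted p = 2.39e-08). Without it the day 0 value of -0.33 ± 0.07 was also called (adjusted p = 0.000168).

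**Figure D2:**
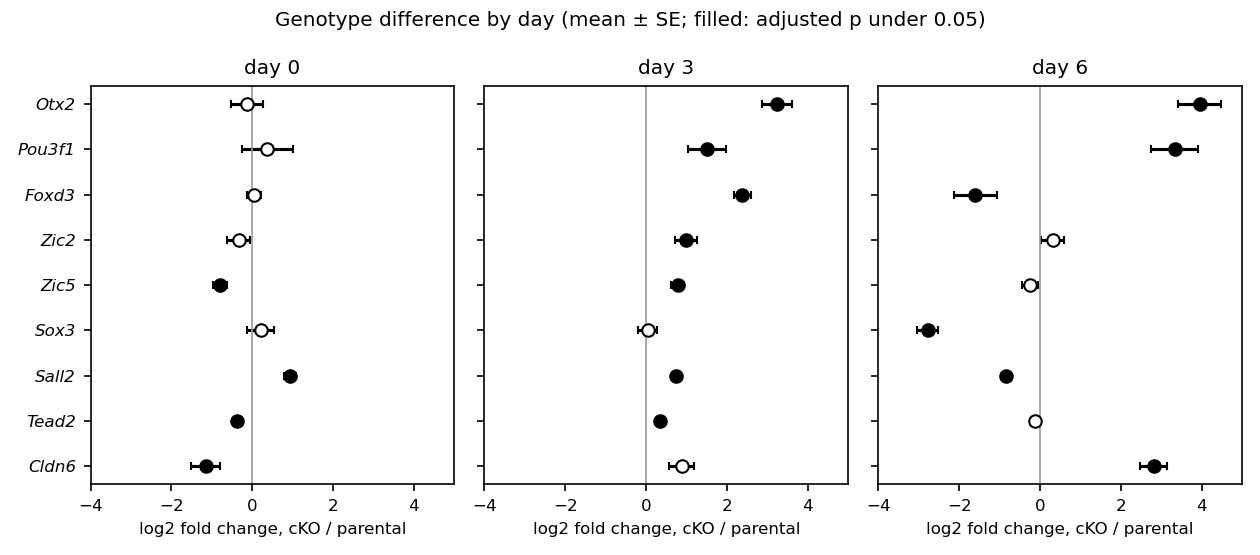
Log2 fold change of cKO over parental cells (horizontal axis) for each of the 9 genes on days 0, 3 and 6, with bars of 1 SE from the edgeR fit of all 18 libraries. Filled points have an adjusted p under 0.05; on day 3 every value lies at or above 0.04 and 7 points are filled.

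Sox3 and Sall2 rose over time in parental cells, and on day 6 both were lower in cKO cells. Sox3 was scarce on day 0, at 3.30, 3.60 and 3.33 CPM in parental and 3.37, 3.13 and 5.19 CPM in cKO libraries. On day 3 it had reached 42.4, 40.8 and 38.5 CPM in parental and 39.5, 45.5 and 40.5 CPM in cKO cells. The groups overlapped on both days, and neither difference was called (0.21 ± 0.33, adjusted p = 0.706, and 0.04 ± 0.24, adjusted p = 0.941). On day 6 the parental libraries held 79.4, 80.2 and 81.9 CPM and the cKO libraries 12.9, 5.62 and 16.6 CPM. This was a log2 fold change of -2.78 ± 0.26 (adjusted p = 9.56e-07), and -2.45 ± 0.10 without cKO day 6 replicate 2, the lowest library.

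Sall2 was higher in cKO cells on days 0 and 3 and lower on day 6, with no overlap on any day. Its day 0 levels were 4.55, 4.84 and 4.32 CPM in parental and 9.66, 7.52 and 9.13 CPM in cKO cells (0.94 ± 0.14, adjusted p = 6.1e-05). On day 3 they were 58.5, 53.3 and 55.1 CPM against 86.4, 105 and 86.7 CPM (0.74 ± 0.11, adjusted p = 0.000115). On day 6 they were 119, 121 and 124 CPM against 73.2, 54.1 and 76.9 CPM (-0.84 ± 0.11, adjusted p = 8.07e-06). Without cKO day 6 replicate 2 the day 6 value was -0.70.

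Tead2 was lower in cKO cells on day 0 and higher on day 3, by the smallest differences among the called members. Parental day 0 libraries held 138, 147 and 134 CPM and cKO ones 103, 104 and 113 CPM (-0.38 ± 0.07, adjusted p = 0.000512). On day 3 the levels were 231, 216 and 222 CPM in parental and 274, 289 and 291 CPM in cKO cells (0.35 ± 0.07, adjusted p = 0.00194). The groups overlapped on day 6, at 306, 313 and 296 CPM in parental and 298, 244 and 301 CPM in cKO cells (-0.12 ± 0.07, adjusted p = 0.184).

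Cldn6, the single member that is not a transcription factor, went from lower to higher in cKO cells. On day 0 it stood at 17.0, 18.6 and 18.1 CPM in parental and 7.56, 8.46 and 8.19 CPM in cKO libraries. On day 3 it stood at 82.0, 82.4 and 75.2 CPM in parental and 155, 141 and 144 CPM in cKO libraries. By day 6 it had returned to 17.7, 18.4 and 17.9 CPM in parental cells, while the cKO libraries held 81.8, 224 and 73.3 CPM. The groups did not overlap on any day. The log2 fold change was -1.15 ± 0.36 on day 0 (adjusted p = 0.0261), a call lost without parental replicate 2 or 3 or without any one of the cKO replicates of that day (adjusted p from 0.0572 to 0.0733). The day 3 value of 0.88 ± 0.30 missed the threshold (adjusted p = 0.0669) and passed it without cKO day 6 replicate 2 (0.88 ± 0.06, adjusted p = 5.57e-15). On day 6 the value was 2.81 ± 0.33 (adjusted p = 1.59e-05) with all libraries and 2.10 ± 0.07 without that replicate (adjusted p = 1.09e-24).

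Other epithelial junction genes and regulators stood beside Cldn6. The summed level of 11 such genes, among them Epcam, Cdh1 and Krt8, was 867 to 882 CPM in parental and 894 to 921 CPM in cKO libraries on day 0, with 2 of the 11 higher and 2 lower. On day 3 it was 872 to 902 CPM in parental and 1072 to 1136 CPM in cKO cells, and on day 6 it was 352 to 386 CPM in parental cells and 951, 4889 and 979 CPM in cKO replicates 1, 2 and 3. All 11 were higher in cKO cells on day 6, and 10 of 11 without replicate 2. On day 3, 0 of the 11 were called by edgeR, 1 was higher at an unadjusted p under 0.05 and 1 by DESeq2, and 9 of 11 were called higher by edgeR without cKO day 6 replicate 2. Of all genes tested, 15.1% were called higher and 16.5% lower on day 0. The shares called higher were 6.32% on day 3 and 19.9% on day 6, and 13.9% and 20.4% without that replicate. The part of epithelial cells in the Cldn6 result was not tested.

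**Figure D3:**
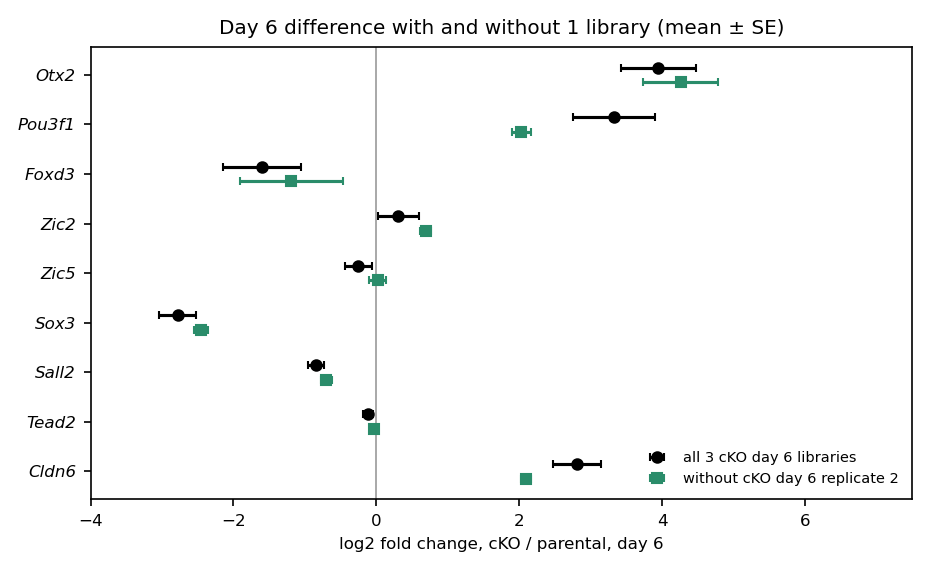
Day 6 log2 fold change of cKO over parental cells for the 9 genes with all 3 cKO libraries and without cKO day 6 replicate 2, with bars of 1 SE. Pou3f1 moves from 3.33 to 2.03, Cldn6 from 2.81 to 2.10 and Zic2 from 0.31 to 0.69, and every other called gene keeps its side of 0.

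Leaving out cKO day 6 replicate 2 from the fit gave 2 members higher and 4 lower on day 0, where 21.2% and 22.2% of all genes were then called. Pou3f1 was the second higher member (0.37 ± 0.15, adjusted p = 0.0351). On day 3 it gave 8 members higher, where 13.9% of all genes were called higher, and Sox3 was the one not called. On day 6 it gave 4 higher, with Zic2 added, and 2 lower, with Foxd3 no longer called, where the shares of all genes were 20.4% and 25.9%.

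Over time, the members followed different courses within parental cells. From day 0 to day 3, 5 of the 9 rose (Sall2, Sox3, Pou3f1, Cldn6 and Tead2) and 3 fell (Foxd3, Zic5 and Zic2), where 41.1% of all genes were called higher and 34.4% lower. Sall2 rose by 3.60 ± 0.13 and Sox3 by 3.57 ± 0.29 on the log2 scale, while Foxd3 fell by 4.52 ± 0.21. From day 3 to day 6, 3 rose further (Sall2, Sox3 and Tead2) and 6 fell, where the shares of all genes were 32.6% and 32.7%. Pou3f1 fell by 3.87 ± 0.57, Otx2 by 3.39 ± 0.55 and Zic5 by 2.59 ± 0.19, and Sall2 rose by 1.13 ± 0.11.

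In cKO cells, 7 members rose from day 0 to day 3 and Foxd3 fell, where 41.0% of all genes were called higher and 35.0% lower. Otx2 rose by 2.85 ± 0.37 and Zic5 by 0.72 ± 0.17, 2 genes that did not rise in parental cells, where Otx2 changed by -0.52 ± 0.39 (adjusted p = 0.233) and Zic5 fell by 0.86 ± 0.17. Zic2, which fell by 0.84 ± 0.28 in parental cells, changed by 0.48 ± 0.28 in cKO cells (adjusted p = 0.132), and by 0.48 ± 0.07 without cKO day 6 replicate 2 (adjusted p = 1.26e-07). From day 3 to day 6, 7 members fell and 0 rose in cKO cells, where 34.8% of all genes were called lower and 31.3% higher, and 0 rose also at an unadjusted p under 0.05 and with DESeq2. Sox3 fell by 1.84 ± 0.25 and Sall2 by 0.44 ± 0.11, although both rose in parental cells over the same days. Fitted on the day 3 and day 6 cKO libraries alone, the falls of Sall2 and Pou3f1 missed the threshold (adjusted p = 0.0604 and 0.0514). Cldn6 changed by -0.21 ± 0.30 (adjusted p = 0.546) with all libraries and fell by 0.92 without cKO day 6 replicate 2 (adjusted p = 3.57e-15).

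The difference between the genotypes in each change was tested directly. For day 0 to day 3 it was positive and called for 6 members, where 9.47% of all genes were called in that direction, and negative for 0, where the share was 9.12%; 0 were negative also at an unadjusted p under 0.05 and with DESeq2. It was 3.37 ± 0.54 for Otx2, 2.34 ± 0.27 for Foxd3, 2.02 ± 0.47 for Cldn6, 1.59 ± 0.24 for Zic5, 1.32 ± 0.40 for Zic2 and 0.73 ± 0.10 for Tead2 (log2). The Zic2 call was lost on leaving out 11 of the 12 libraries of this contrast in turn (adjusted p from 0.0502 to 0.0737). For Pou3f1 the difference was 1.15 ± 0.79 (adjusted p = 0.37), and 1.14 ± 0.17 without cKO day 6 replicate 2 (adjusted p = 5.57e-07), which made 7 positive members where 15.5% of all genes were called positive and 16.6% negative. Sox3 and Sall2, with -0.16 ± 0.41 and -0.21 ± 0.18, were not called.

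For day 3 to day 6 the difference was positive for Cldn6 (1.93 ± 0.43) and negative for 5 members, where 12.4% and 13.6% of all genes were called. The negative ones were Foxd3 at -3.98 ± 0.57, Sox3 at -2.83 ± 0.35, Sall2 at -1.57 ± 0.15, Zic5 at -1.03 ± 0.26 and Tead2 at -0.47 ± 0.10. The size of the Foxd3 value rests on few day 6 counts, with sums of 30 in parental and 9 in cKO cells. Sox3 and Sall2 moved in opposite directions in the genotypes, while Foxd3 and Zic5 fell in both and fell further, from a higher day 3 level, in cKO cells. Pou3f1 (1.81 ± 0.73, adjusted p = 0.0866), Otx2 (0.69 ± 0.68, adjusted p = 0.488) and Zic2 (-0.67 ± 0.40, adjusted p = 0.244) were not called. Without cKO day 6 replicate 2 there were 2 positive and 6 negative members, where 15.2% and 17.0% of all genes were called: Cldn6 was at 1.23 ± 0.10, and Pou3f1 at 0.52 ± 0.15 and Zic2 at -0.29 ± 0.11 were called (adjusted p = 0.0075 and 0.0371).

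**Figure D4:**
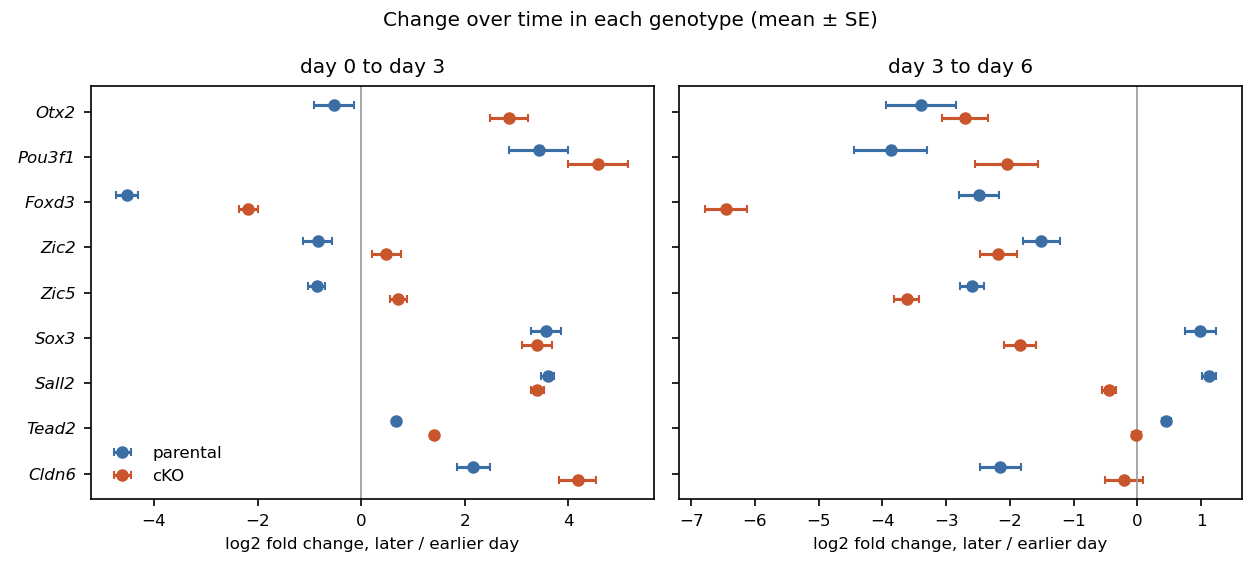
Log2 change of each of the 9 genes from day 0 to day 3 and from day 3 to day 6, in parental and cKO cells, with bars of 1 SE. Sox3 and Sall2 lie above 0 in parental cells and below 0 in cKO cells from day 3 to day 6, and Otx2, Zic5 and Zic2 lie above 0 from day 0 to day 3 in cKO cells but not in parental cells, the cKO change of Zic2 (0.48) not being called.

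Levels were compared between members only per kilobase of exon length. In parental cells the highest mean level passed from Zic2 on day 0 (48.7 ± 1.61 CPM per kb, SD, n = 3) to Tead2 on day 3 (46.6 ± 1.50) and day 6 (63.7 ± 1.75). On day 3 Cldn6 (46.4 ± 2.36 CPM per kb) was within the spread of Tead2. In cKO cells on day 3 the highest was Cldn6 with 85.2 ± 4.32 CPM per kb, followed by Tead2 with 59.4 ± 1.96 and Zic2 with 54.2 ± 7.08. Otx2 and Foxd3 were the lowest there, with 5.59 ± 1.81 and 5.54 ± 1.62 CPM per kb. In parental cells the same 2 genes had 0.591 ± 0.126 and 1.08 ± 0.254 CPM per kb on that day.

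Across the 6 groups, the highest mean level was in cKO day 3 cells for Otx2, Pou3f1, Zic2 and Cldn6, in parental day 6 cells for Sox3, Sall2 and Tead2, in parental day 0 cells for Zic5 and in cKO day 0 cells for Foxd3. The top group did not overlap the next for Otx2, Pou3f1, Sox3, Sall2 and Tead2. It overlapped the next for Zic2 (cKO day 3 and parental day 0), Zic5 (parental day 0 and cKO day 3), Foxd3 (the day 0 groups) and Cldn6 (cKO day 3 and cKO day 6). The share of all genes whose top group stands apart from the next was not computed. The separation is therefore a description, not a trait particular to the members.

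A list of 16 other formative and primed epiblast genes was read in the same fit. On day 3, 8 of the 16 were higher and 3 lower in cKO cells, on day 0, 5 and 2, and on day 6, 7 and 2. Of all genes tested, 6.32% were called higher and 9.39% lower on day 3. The shares were 15.1% and 16.5% on day 0, and 19.9% and 25.7% on day 6. Fgf5, a growth factor that marks the formative and primed epiblast, had 14.3 ± 1.43 CPM in parental and 64.8 ± 7.71 CPM in cKO cells on day 3 (SD, n = 3), a log2 fold change of 2.18 ± 0.19 (adjusted p = 3.77e-07). Fgf15 was higher by 1.93 ± 0.30 and the DNA methyltransferase gene Dnmt3b by 0.63 ± 0.09 (adjusted p = 0.000161 and 4.4e-05). Lin28a, which encodes an RNA-binding protein that blocks let-7 maturation, was higher by 0.41 ± 0.08 (adjusted p = 0.00108). The 3 that were lower were Etv4 (-0.51), Cdh2 (-0.50) and Lef1 (-0.39). Tdgf1, a Nodal coreceptor, and Dnmt3a were the most abundant of those not called, at -0.23 ± 0.09 and 0.24 ± 0.10 (adjusted p = 0.0857 and 0.13).

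On day 6, Etv5 was higher in cKO cells by 0.94 ± 0.08, Lin28a by 0.76 ± 0.08 and Fgf5 by 1.59 ± 0.24, and Tdgf1 was lower, at -1.14 ± 0.12 (adjusted p = 5.86e-08, 6.18e-07, 3.51e-05 and 5.15e-07). On day 0, Etv4 was higher by 2.37 ± 0.13, Lin28a by 0.83 ± 0.08 and Dnmt3b by 0.87 ± 0.09, and Lin28b was lower, at -1.38 ± 0.19 (adjusted p = 2.78e-10, 4.07e-07, 5.83e-07 and 3.37e-05). The list held genes that were higher and genes that were lower in cKO cells on each day, as the members did on days 0 and 6. Without cKO day 6 replicate 2 the list gave 7 higher and 3 lower on day 0, 9 and 5 on day 3, and 9 and 3 on day 6. The shares of all genes were then 21.2% and 22.2%, 13.9% and 16.1%, and 20.4% and 25.9%.

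Family relatives of the members were read for the same contrasts, 21 of 23 listed being testable. On day 6, 8 were higher and 8 lower in cKO cells, where the shares of all genes were 19.9% and 25.7%. Without cKO day 6 replicate 2 the counts were 9 and 8, where the shares were 20.4% and 25.9%. By family the differences were as follows. The other POU3F genes went the opposite way from Pou3f1: Pou3f2, a neural POU factor, stood at 196 ± 5.67 CPM in parental and 28.7 ± 16.6 CPM in cKO cells (SD, n = 3), a log2 fold change of -2.77 ± 0.38 (adjusted p = 6.42e-05). Pou3f3 and Pou3f4 were at -2.23 and -2.50 (adjusted p = 8.44e-05 and 5.14e-07). The other SOXB1 genes went the way of Sox3, with Sox2 at -2.65 ± 0.32 and Sox1 at -1.83 ± 0.39 (adjusted p = 2.35e-05 and 0.00185). Without cKO day 6 replicate 2, Pou3f2 was at -2.35, Sox2 at -2.26 and Sox1 at -1.39, all called.

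Sall1 and Sall3 were lower together with Sall2 on day 6, at -1.86 ± 0.22 and -1.70 ± 0.28 (adjusted p = 1.57e-05 and 0.000172), and Sall4, a pluripotency factor, was not called (-0.15 ± 0.11, adjusted p = 0.29). Among the ZIC genes Zic1 was lower (-0.90, adjusted p = 0.00372). Otx1 was higher, as Otx2 was (3.33, adjusted p = 0.00719), but scarce, with a mean of 0.0371 CPM per kb in cKO cells. Of the FOXD genes, Foxd1 was higher (1.03, adjusted p = 0.0338), unlike Foxd3, and Foxd2 was not called (-0.39, adjusted p = 0.352). The other TEAD genes were higher where Tead2 was not called, with Tead4 at 1.78 ± 0.26 (adjusted p = 5.39e-05). Cldn3, Cldn4 and Cldn7 were higher in cKO cells, as Cldn6 was, at 2.29 ± 0.35, 2.33 ± 0.43 and 1.69 ± 0.36 with all libraries and at 1.52, 1.33 and 0.92 without replicate 2. These 3 claudins are also in the epithelial list, and Sox1 is in the neural list.

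**Figure D5:**
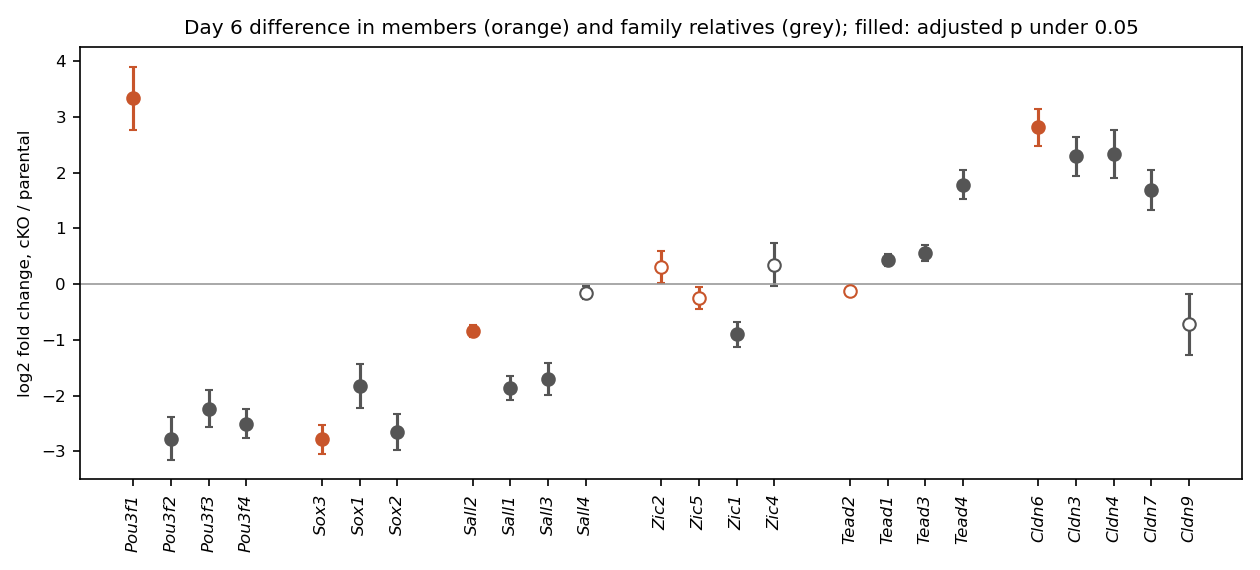
Day 6 log2 fold change of cKO over parental cells with bars of 1 SE for the members (orange) and relatives of theirs (grey), arranged by the POU3F, SOXB1, SALL, ZIC, TEAD and CLDN families. Pou3f1 at 3.33 lies apart from Pou3f2, Pou3f3 and Pou3f4, which lie between -2.77 and -2.23.

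Marker lists of other cell types differed between the genotypes beside these results, and several changed direction between days. For the counts called in the lists below, the shares of all genes higher and lower were 15.1% and 16.5% on day 0. They were 6.32% and 9.39% on day 3, and 19.9% and 25.7% on day 6. Some of the counts lie near these shares. The shares without cKO day 6 replicate 2 were 21.2% and 22.2%, 13.9% and 16.1%, and 20.4% and 25.9% on days 0, 3 and 6. The summed level of 15 naive pluripotency genes was 7279.7 to 7387 CPM in parental and 8382 to 8526 CPM in cKO cells on day 0, with 4 higher and 1 lower. On day 3 it was 393 to 437 CPM and 263 to 309 CPM, with 1 higher and 9 lower. On day 6 it was 81.8 to 90.3 CPM in parental cells and 83.1, 283 and 84.1 CPM in cKO replicates 1, 2 and 3, with 1 higher and 11 lower. The higher one was Klf5 (2.97, adjusted p = 0.000191, and 1.94 without cKO day 6 replicate 2), with a mean of 2.78 CPM per kb in parental cells. It ran from 10.5 to 43.7 CPM per kb in the cKO libraries and held much of their sum. Nanog, among the lower ones, had means of 6.12 and 1.05 CPM per kb. For 7 general pluripotency genes, some of them in the naive list, the sums were 3202 to 3262 and 3990.2 to 4384 CPM on day 0, 1534 to 1621 and 1926 to 1994 CPM on day 3, and 463 to 470 and 288 to 414 CPM on day 6. Of these 7, 3 were higher on day 0, 3 higher and 1 lower on day 3, and 1 higher and 3 lower on day 6. Naive counts higher and lower without cKO day 6 replicate 2 were 5 and 4, 1 and 11, and 1 and 10 by day. Those of the 7 general genes were then 4 and 0, 4 and 2, and 1 and 5.

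Neural genes had a summed level of 427 to 439 CPM in parental and 442 to 511 CPM in cKO cells on day 0, with 3 of 15 higher and 4 lower and Dbx1 at 0 in both. On day 3 the sums were 332 to 342 CPM and 582 to 589 CPM, with 4 higher and 1 lower and Dbx1 at 0 in cKO cells. Within that day 3 sum Ncan, an extracellular matrix proteoglycan of the nervous system, had 10.8 ± 0.791 CPM in parental and 132 ± 13.0 CPM in cKO cells (SD, n = 3). On day 6 the sums were 962 to 1062 CPM and 642 to 776 CPM, with 2 higher and 9 lower. Neural crest genes had 36.7 to 38.4 CPM in parental and 77.7 to 87.4 CPM in cKO cells on day 0, with 3 of 11 higher and 1 lower and Tfap2b at 0 in both. They had 27.3 to 29.1 and 30.1 to 38.5 CPM on day 3, with 2 higher and 1 lower, and 546 CPM in each parental library and 272 to 441 CPM in cKO cells on day 6, with 2 higher and 5 lower. Ngfr held the largest part of the day 0 neural crest sums, at 6.79 CPM per kb in parental and 17.2 in cKO cells. Neural counts higher and lower without cKO day 6 replicate 2 were 4 and 5, 6 and 1, and 3 and 9 by day. Those of neural crest genes were then 5 and 1, 3 and 2, and 3 and 6.

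Streak and nascent mesoderm genes had 9.04 to 10.2 CPM in parental and 20.8 to 22.1 CPM in cKO cells on day 0, with 3 of 8 tested higher. On day 3 they were the other way, at 338 to 430.4 CPM and 61.7 to 127 CPM, with 1 higher and 5 lower. On day 6 they had 21.5 to 25.1 CPM in parental cells and 61.0, 25.9 and 64.3 CPM in cKO replicates 1, 2 and 3, with 4 higher and 2 lower. Endoderm genes had 553 to 582 and 622 to 806 CPM on day 0, with 3 of 11 tested higher and Cer1 at 0 in both genotypes. They had 239 to 257 and 277 to 309.9 CPM on day 3, with 1 higher and 1 lower, and 69.3 to 73.3 and 185 to 201 CPM on day 6, with 8 higher. Apoe alone held most of the endoderm sums on days 0 and 3. Its means in parental and cKO cells were 252 and 304 CPM per kb on day 0, and 106 and 126 on day 3. Foxa2 stood at 0.0763 and 0.0105 CPM per kb on day 0, and Gata4 at 0.409 and 0.563. Mesoderm counts higher and lower without cKO day 6 replicate 2 were 3 and 0, 1 and 5, and 4 and 1 by day. Those of endoderm genes were then 3 and 1, 2 and 1, and 10 and 0.

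Fibroblast and feeder genes had 1178 to 1248 CPM in parental and 364 to 376 CPM in cKO cells on day 0, when 7 of 10 were lower. On day 3 they were at 30.1 to 33.1 CPM and 33.3 to 38.8 CPM, with 1 higher, and on day 6 at 923 to 976 CPM and 1420.1 to 1578 CPM, with 9 higher. Feeder counts higher and lower without cKO day 6 replicate 2 were 0 and 8, 1 and 0, and 9 and 0 by day. The part of these other cell types in the members' differences was not tested.

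The genes whose levels followed each member most closely over the 18 libraries were ranked by Pearson's r of log2 CPM, as a description over libraries that share groups. Zic5 was matched best by Ccne1 (r = 0.994), Edrf1 (0.986) and Dbf4 (0.985), and Zic2 by Nup62 (0.969), Zic5 (0.965) and Hnrnpdl (0.964). For Sall2 the nearest were Homez (0.991), Pced1a (0.991) and Slitrk5 (0.990), and for Tead2 Dclk1 (0.984), Kctd17 (0.984) and Smo (0.983). Sox3 was followed by Zcchc18, Lrrc4 and Zfp101 (0.983 each), and Foxd3 by Wdr4 (0.985), Setdb1 (0.983) and Atf1 (0.982). Cldn6 was followed by Minpp1 (0.976), Cldn7 (0.966) and Nectin2 (0.965), so 1 of its nearest genes is another claudin. Pou3f1 was followed by Lpcat4 (0.980) and Cdv3 (0.970).

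Otx2 had the weakest matches, Tspan4 (0.939), Zbtb2 (0.913) and Cables1 (0.899). Their levels were also highest in cKO day 3 cells, but over a smaller range: Tspan4 moved from a mean of 14.7 CPM in parental to 22.4 CPM in cKO cells on day 3, and Otx2 from 2.49 to 23.6 CPM. Among the members themselves, r was 0.96 for Zic2 and Zic5, 0.93 for Sall2 and Tead2, 0.90 for Sox3 and Sall2, and 0.89 for Pou3f1 and Cldn6.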

How the data were processed

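RNA was measured in 18 mouse libraries, 3 in each of 6 groups of genotype and day. The deposited table holds whole-number counts per Ensembl gene and library, not normalized. The submitters' processing notes name Novoalign, DESeq2 1.10.0, mm10 and GRCm38; neither the counting tool nor its strand setting is given there, so reads of overlapping opposite-strand genes (Otx2os1, Gm2164 beside Pou3f1, and Cd37 beside Tead2) cannot be told apart. Counts were fitted with edgeR 4.0.16 (R 4.3.3; TMM, filterByExpr, group means, robust quasi-likelihood F test, Benjamini-Hochberg adjustment over 20267 genes). Each SE printed with an edgeR value is the size of the log2 fold change divided by the square root of its F statistic. It is derived in this way because edgeR reports no SE, and it is approximate where counts are low. The biological coefficient of variation was 13.5%. Library totals of 13704958 to 26995420 counts limit precision for Otx2 and Foxd3 on day 6, and floors of 3 counts cover counting error only. The alternatives tried were total-count scaling, RLE factors, no filter, at least 1 CPM in 3 libraries, DESeq2 1.42.0, fits of a contrast's libraries alone and leaving out each library. Leaving out cKO day 6 replicate 2 from contrasts that do not use its group was added after seeing the data. The closest pair of libraries, cKO day 0 replicates 1 and 2, differed by a chi-square of 1.23 per gene and was kept as separate libraries. The fit was tested on simulated data. Of the table's IDs, 25234 are in GENCODE M21, the source of positions and exon lengths. The members and gene lists were chosen with earlier results of these data known. All members are named; of other lists, up to 4 called genes with the smallest adjusted p, up to 2 abundant uncalled genes and lists of 5 or fewer are named, family relatives by level, and the 3 nearest genes by r among those with a mean of at least 5 CPM (prior count 2); some genes that these rules name are not reported here.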

Additional observations from a re-analysis of the deposited data

Results flagged for a closer look

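The change over time differed between the genotypes, by a test of the difference itself (cKO change minus parental change, log2, edgeR), for several members. From day 0 to day 3 the differences were 3.37 for Otx2, 2.34 for Foxd3, 2.02 for Cldn6, 1.59 for Zic5, 1.32 for Zic2 and 0.73 for Tead2, where 9.47% of all genes tested were called positive and 9.12% negative; the Zic2 call was lost on leaving out 11 of the 12 libraries in turn. From day 3 to day 6 they were 1.93 for Cldn6, -0.47 for Tead2, -1.03 for Zic5, -1.57 for Sall2, -2.83 for Sox3 and -3.98 for Foxd3, where 12.4% of all genes were called positive and 13.6% negative. Cldn6 was positive over both intervals, and Foxd3, Zic5 and Tead2 were positive over the first and negative over the second. Both differences use the same day 3 libraries, with opposite signs. A higher day 3 level in cKO cells therefore raises the first difference and lowers the second. The second interval of every gene rests on the day 6 cKO libraries, in which replicate 2 stands apart; without it the 6 differences from day 3 to day 6 were 1.23, -0.38, -0.76, -1.43, -2.49 and -3.57 in the same order, all called. The size of the Foxd3 difference from day 3 to day 6 rests on few day 6 counts, with sums of 30 in parental and 9 in cKO cells. Groups of 3 libraries are too small for a check of single outlying libraries gene by gene.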

How the results depend on the processing

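No paired analysis was possible because the labels give no replicate number that groups share. No member's log2 fold change reversed as a call under any alternative run, and of 1134 member values under alternatives 1081 stayed on the same side of the threshold, called or not, 34 calls were lost and 19 were gained. Fitting only the libraries of a contrast, which leaves cKO day 6 replicate 2 out of the day 0 and day 3 contrasts, moved the counts of all genes called on day 3 from 1281 to 2989 higher and from 1904 to 2975 lower, and on day 6 from 5202 to 2649 lower. It moved the difference in the day 0 to 3 change from 1920 to 3179 higher and from 1848 to 3110 lower, that in the day 3 to 6 change from 2757 to 1716 lower, and the members higher on day 0 from 1 to 2. With DESeq2, 2 members in place of 1 were positive for the difference in the day 3 to 6 change. Leaving out 1 library gave 839 to 2818 genes higher and 1384 to 3267 lower on day 3, 1579 to 3136 higher and 1422 to 3362 lower for the difference in the day 0 to 3 change, 1 to 2 members higher on day 0, and 1 to 2 members positive for the difference in the day 3 to 6 change. It gave 2 to 4 members lower on day 0, 5 to 8 higher on day 3, and 3 to 4 higher and 2 to 3 lower on day 6. Over all 20267 genes tested it gave 2378 to 4301 higher and 2722 to 4500 lower on day 0. On day 6 it gave 3451 to 4135 of all genes higher and 4364 to 5306 lower. For the difference in the day 3 to 6 change, 2030 to 3084 of all genes were positive. The highest of these counts on day 3 came without cKO day 6 replicate 2, and the lowest count higher without parental day 3 replicate 2. The Pou3f1 call on day 3 was lost with no filter on low counts (adjusted p = 0.0732), and Cldn6 on day 3 was called with DESeq2 (adjusted p = 0.011) and in the fit of the day 3 libraries alone (adjusted p = 1.54e-19). Total-count scaling moved the median log2 change of all genes from day 3 to day 6 in parental cells from 0.00 to 0.17, and no call of a member was lost under it or under RLE factors.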

Other observations

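Among relatives of the members on day 0, 5 of 21 were called higher and 0 lower by edgeR in cKO against parental cells, where 15.1% of all genes tested were called higher and 16.5% lower; 2 were lower at an unadjusted p under 0.05 and 1 by DESeq2. The higher ones were Foxd1 (2.72 ± 0.48), Sox1 (2.14 ± 0.64), Cldn9 (1.82 ± 0.43), Cldn4 (1.34 ± 0.42) and Tead4 (0.76 ± 0.23), with adjusted p from 0.00055 to 0.0266. Cldn9 and Cldn4 were thus higher on the day on which Cldn6 was lower, though Cldn9 was scarce (0.277 CPM per kb in parental and 0.986 in cKO cells). Cldn7 and Cldn3 were not called by edgeR, at -0.95 and 0.21 (adjusted p = 0.112 and 0.792). Cldn7 was called lower, as Cldn6 was, without cKO day 6 replicate 2 (-0.95, adjusted p = 4.64e-05). Without cKO day 6 replicate 2, 8 were higher and 2 lower, where the shares of all genes were 21.2% and 22.2%.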
